A study of Mus musculus with 30 samples.

Results

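Stromal cells of the mouse omentum that had been cultured in direct contact with macrophages were compared with the same kind of cell cultured without them. The omentum is the fatty fold of the abdominal lining, and the stromal cells were sorted on podoplanin (PDPN), a surface glycoprotein of fibroblast-like and mesothelial cells. The comparison takes 6 of the 30 libraries of the series: 3 from PDPN+ cells after direct co-culture and 3 from PDPN+ cells alone. It asks what contact with macrophages does to the RNA of the stromal cells. The series as a whole pairs macrophages with vitamin A and holds 10 groups of 3 libraries, with polyA RNA read out by sequencing.

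Both groups were untreated in vitro cultures, and no strain, genotype, age or sex of the mice is given in the sources used here. The co-culture group held PDPN+ cells grown together with macrophages and sorted apart from them afterwards. The macrophages were sorted on F4/80, their surface marker. Another PDPN+ group, grown with macrophages across a transwell membrane, served to set contact beside no contact. A further PDPN+ group, given 1 uM BMS493, which silences retinoic acid receptors, entered the fit for its share in the spread and is described no further. The labels do not tell whether a group's 3 replicates came from different animals or cultures, and each p value therefore reflects only how far these libraries spread, which may be technical. The libraries fall into 3 labelled batches, each with 1 library of every group, and the replicate number follows the batch.

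Stromal cells of the body cavities belong to a few related types. Mesothelial cells line the surface of the omentum and carry uroplakins and keratins, while fibroblasts beneath them make collagen and can turn into contractile myofibroblasts that carry smooth muscle actin. Cells that lack oxygen switch on genes of glucose uptake and glycolysis through hypoxia-inducible factors, and cells short of amino acids switch on amino acid transporters and synthesis through the factor ATF4.

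Fibroblast genes were abundant in the PDPN+ libraries. The summed level of 22 fibroblast genes lay between 8483 and 25559 CPM (read counts relative to the scaled total of the library) in the cells alone and between 16627 and 43895 CPM in co-culture. The gene of the sorting marker, Pdpn, lay at 194, 156 and 176 CPM in alone replicates 1, 2 and 3 and at 188, 91.3 and 136 CPM in the co-culture replicates, and these ranges overlapped. The 13 endothelial and lymphatic genes summed to 64.5, 70.5 and 24 CPM alone and to 116, 66.2 and 21.5 CPM in co-culture. In all but co-culture replicate 3, most of that came from the VEGF receptor gene Kdr (47.1, 48.8 and 10.9 CPM alone and 88.7, 45.4 and 2.17 CPM in co-culture) and the adhesion gene Esam (14.3, 16.1 and 8.75 and 13.4, 7.15 and 1.9 CPM), while the defining endothelial genes Cdh5 and Tie1 were at 0 CPM in all 3 alone libraries and at or below 0.0714 CPM in co-culture. Flt4, a receptor of lymphatic endothelium, lay higher in all 3 co-culture libraries, at 0.751, 2.11 and 0.0366 CPM alone and 8.51, 9.61 and 5 CPM in co-culture. The 16 genes of B, T and mast cells summed to 3.56, 6.68 and 10.3 CPM alone and to 7.23, 12.7 and 11.6 CPM in co-culture. The part of other cell types in the results was not tested.

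Libraries differed in cell number and in how gene levels followed exon length. The 3 alone libraries were made from 25000 sorted cells each, whereas co-culture replicates 1, 2 and 3 were made from 25000, 3730 and 2148 cells. Total counts of the 6 libraries ranged from 29350158 to 43999182. Alone replicate 3 stood apart: its genes were high or low by exon length, with a median log2 ratio to alone replicates 1 and 2 of 0.72 in the shortest and of -0.88 in the longest of 5 equal classes of gene length (8889 genes in all). Transwell replicate 1 showed the same trend (0.60 and -0.89), and the medians of the other PDPN+ libraries lay between -0.30 and 0.15. Counts without alone replicate 3, and values of the 25000-cell co-culture library by itself, are therefore given beside the results they touch.

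Of 19134 genes tested over the 12 PDPN+ libraries with the edgeR quasi-likelihood test, 0 passed an adjusted p (Benjamini-Hochberg) of 0.05, which is 0% in each direction. The smallest adjusted p was 0.0524. At an unadjusted p under 0.05 the same test had 997 genes higher (5.21%) and 799 lower (4.18%) in co-culture. DESeq2 called 282 genes higher (1.32% of 21341) and 65 lower (0.305%), and edgeR on the 6 libraries alone called 30 higher (0.172% of 17432) and 4 lower (0.0229%). After correction of each library for exon length, edgeR called 18 higher (0.0943% of 19087) and 0 lower (0%). With so few calls, the groups below are described by whether the 3 co-culture libraries lay apart from the 3 alone libraries. That held for 1931 genes with co-culture higher (10.1%) and 1703 with co-culture lower (8.9%), and for 2764 and 3121 genes without alone replicate 3. List counts given below without that library are to be read beside these 2764 and 3121 of 19134 genes. The 25000-cell co-culture library by itself lay above all alone libraries for 22.9% of genes and below them for 21%. RNA of a mixed population was measured, so fewer cells of a type and less RNA per cell cannot be told apart.

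Genes whose reads could come from macrophages left in the sorted stromal cells were set apart first. Genes over 4 times higher in macrophages alone than in PDPN+ cells alone form a class of possible carry-over, with 1607 of the genes tested (8.4%). In that class 570 genes (35.5%) lay higher in all 3 co-culture libraries, against 1361 of the 17527 genes outside it (7.77%). With co-culture lower the counts were 44 (2.74%) and 1659 (9.47%). The level in the cells alone enters both the class and the comparison, so these shares are given as a description. Of the DESeq2 calls, 217 higher and 0 lower were in the class, and 65 higher and 65 lower were outside it (0.334% each way of 19444). Outside the class, edgeR on the 6 libraries called 4 higher and 4 lower (0.0249% each way), and edgeR with exon length correction 1 higher (0.00572%), while in the class the latter called 17 higher (1.06%) and the former 26 (1.94%). At an unadjusted p under 0.05, 555 genes outside the class were higher (3.17%) and 789 lower (4.5%), beside 442 (27.5%) and 10 (0.622%) within it. The gene lists below were kept whole, so some hold members of the class, and their number is given with each list.

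Genes of glucose uptake, glycolysis and the response to low oxygen were higher together in the co-culture stromal cells. All 3 co-culture libraries lay above all 3 alone libraries for 22 of the 26 genes of that list (1 in the class), and below them for 1 (84.6% and 3.85%, against 10.1% and 8.9% of all genes tested). The count was 24 higher and 1 lower without alone replicate 3. The 25000-cell library by itself lay above all alone libraries for 22 of the 26, against 22.9% of all genes. The median log2 fold change over the list was 1.26, beside -0.00 over all genes tested, and 1.11 after correction for exon length.

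Slc16a3 (ENSMUSG00000025161, chr11:120948480-120960868 on GRCm38), which exports lactate, lay at 26.7, 32.2 and 15.6 CPM in alone replicates 1 to 3 and at 96.5, 211 and 334 CPM in co-culture replicates 1 to 3. The glucose transporter gene Slc2a1 lay at 38.9, 54.7 and 32.8 CPM alone and at 88.8, 227 and 311 CPM in co-culture. P4ha2 (ENSMUSG00000018906, chr11:54100095-54131665), a prolyl hydroxylase of collagen maturation, lay at 54, 64.8 and 37.2 CPM alone and 110, 329 and 637 CPM in co-culture. For all 3 genes the groups were apart, and the highest value was that of co-culture replicate 3, of 2148 cells. The fold between the means was 8.61 for Slc16a3 (log2 fold change 3.11, SE 0.897, edgeR adjusted p = 0.386, DESeq2 adjusted p = 0.0149). It was 6.9 for P4ha2 (log2 fold change 2.79, SE 0.893, edgeR adjusted p = 0.454, DESeq2 adjusted p = 0.0495) and 4.96 for Slc2a1 (edgeR adjusted p = 0.41, DESeq2 adjusted p = 0.0528).

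The steps of glycolysis itself were higher by smaller factors. Pgk1, which makes ATP in the pathway, lay at 144, 154 and 204 CPM alone and 244, 400 and 738 CPM in co-culture (2.75-fold). Eno1, the enolase gene, was at 1314, 1491 and 1412 CPM alone and 2235, 3755 and 4104 CPM in co-culture (2.39-fold). Ldha, which turns pyruvate into lactate, was at 1026, 1071 and 1175 CPM alone and 1485, 2096 and 3043 CPM in co-culture (2.02-fold). None of these groups overlapped. Pdk1, a kinase that keeps pyruvate out of the mitochondrion, differed 3.52-fold and Bnip3, a gene of mitochondrial removal, 2.96-fold. The carbonic anhydrase gene Car9, a standard mark of hypoxia, was at 2.32, 1.84 and 1.26 CPM alone and 4.54, 10.3 and 10 CPM in co-culture (4.58-fold). Gapdh overlapped through alone replicate 3, at 1032, 1036 and 1849 CPM alone and 1448, 2216 and 3430 CPM in co-culture. Ankrd37, of the carry-over class, overlapped through the same library, at 0.837, 0.658 and 2.69 CPM alone and 2.51, 4.05 and 3.64 CPM in co-culture. Aldoc, an aldolase gene, overlapped too, at 14.1, 8.24 and 16.8 CPM alone and 13.7, 7.33 and 4.19 CPM in co-culture.

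One member of the list lay the other way. Adm encodes adrenomedullin, a vasodilator peptide induced by hypoxia in many cells. It lay at 225, 114 and 119 CPM alone and at 34.1, 16.1 and 37.4 CPM in co-culture, so that every co-culture library was below every alone library. It was 5.22-fold lower (log2 fold change -2.37, SE 0.709, edgeR adjusted p = 0.406) and was among the DESeq2 calls (adjusted p = 0.0399). Vegfa, the vascular growth factor gene and another gene known to respond to low oxygen, lay at 55.9, 78.4 and 29 CPM alone and at 110, 256 and 437 CPM in co-culture (4.92-fold, edgeR adjusted p = 0.515).

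**Figure D1:**
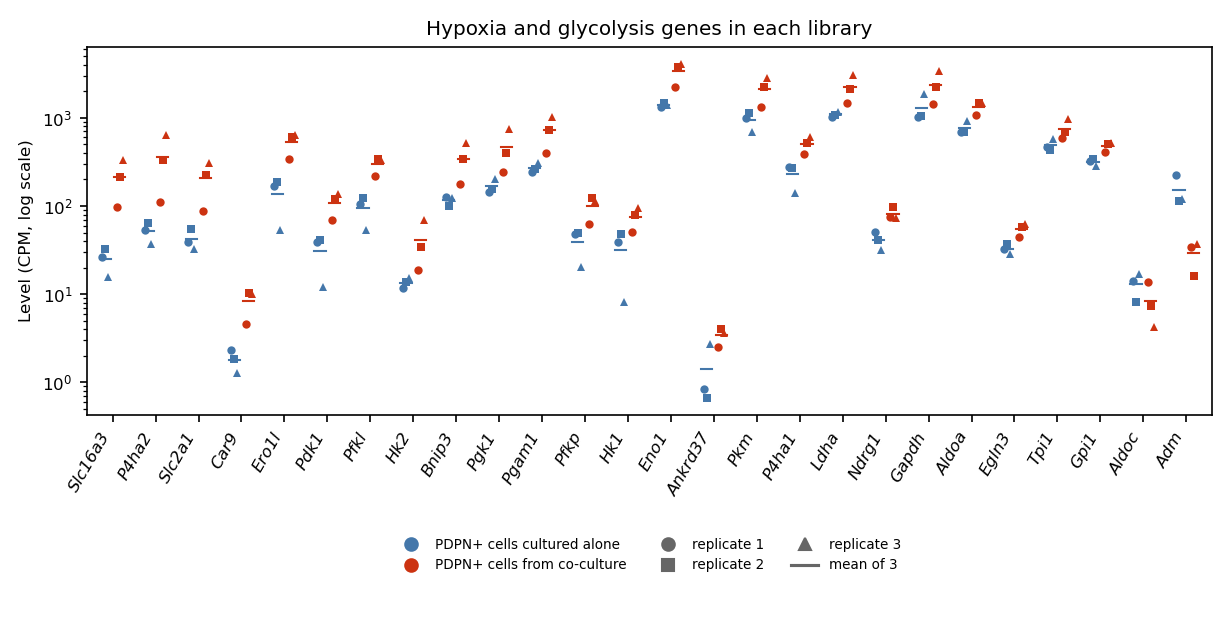
Level in CPM (log axis) of the 26 hypoxia and glycolysis genes in the 6 libraries, with blue for cells alone, red for co-culture, a circle, square or triangle for replicate 1, 2 or 3, and a bar for the mean of 3. The red points lie above the blue ones for 22 genes, overlap them for Gapdh, Ankrd37 and Aldoc, and lie below them for Adm.

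The largest difference of this kind was in a gene outside the fixed list, chosen after its values were seen. Ndufa4l2 (ENSMUSG00000040280, chr10:127514967-127517154), a mitochondrial protein that hypoxia induces and that lowers complex I activity, lay at 0.515, 0.5 and 0.897 CPM alone and at 16.1, 55 and 40.7 CPM in co-culture. Every co-culture library was far above every alone library, the 25000-cell one included. The fold was 58.5 (log2 fold change 5.83, SE 0.949, edgeR adjusted p = 0.0748). It passed with DESeq2 (adjusted p = 6.58e-10) and with edgeR on the 6 libraries alone (adjusted p = 0.0312, or 0.112 with the replicate block). Ak4, an adenylate kinase of mitochondria, was at 8.71, 11.7 and 1.78 CPM alone and 36.9, 69 and 116 CPM in co-culture (10-fold).

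The transwell cells, which share the alone libraries as their control, gave a mixed picture by batch. Over the 26 genes, the median log2 ratio to the alone library of the same batch was 0.57, 1.29 and 1.94 in co-culture replicates 1, 2 and 3. It was -0.31, 0.39 and 1.43 in the transwell replicates. Slc16a3, for example, lay at 13.4, 62.8 and 258 CPM in transwell replicates 1, 2 and 3, and Ndufa4l2 at 5.32, 4.55 and 43.8 CPM. Transwell replicate 3 was thus the highest of its group for both genes, without contact. Ndufa4l2 lay above its alone range (0.5 to 0.897 CPM) in all 3 transwell libraries, whereas Slc16a3 in transwell replicate 1 was below its alone range. Transwell replicate 3 was also made from fewer cells (19265) than the other transwell libraries (25000 each). The part of batch and cell number in these values was not tested.

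Promoter sequences of genes that were high together are shown to let the hypoxia and amino acid groups be compared at the DNA level. They are RefSeq promoter windows of 300 bases on GRCm38.p6, from 250 bases before to 50 after the start of transcription, written along the gene's strand. The capitals mark ACGTG or its reverse complement CACGT, the core that hypoxia-inducible factors are known to bind. Slc16a3 (chr11:120948817-120949116, plus strand) and P4ha2 (chr11:54100674-54100973, plus strand) hold 2 matches each, and Slc2a1 (chr4:119108495-119108794, plus strand) holds 1.
Slc16a3: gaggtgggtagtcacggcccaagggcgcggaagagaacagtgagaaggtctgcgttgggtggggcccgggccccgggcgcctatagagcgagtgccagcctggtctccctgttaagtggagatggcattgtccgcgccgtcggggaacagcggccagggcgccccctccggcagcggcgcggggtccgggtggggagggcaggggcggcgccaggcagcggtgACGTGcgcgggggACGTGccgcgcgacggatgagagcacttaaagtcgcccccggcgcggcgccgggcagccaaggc
P4ha2: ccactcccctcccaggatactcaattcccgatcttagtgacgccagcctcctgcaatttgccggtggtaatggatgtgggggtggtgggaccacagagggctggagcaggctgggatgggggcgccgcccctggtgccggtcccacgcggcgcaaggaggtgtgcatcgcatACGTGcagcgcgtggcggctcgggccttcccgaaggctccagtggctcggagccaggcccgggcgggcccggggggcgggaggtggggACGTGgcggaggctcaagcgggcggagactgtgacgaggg
Slc2a1: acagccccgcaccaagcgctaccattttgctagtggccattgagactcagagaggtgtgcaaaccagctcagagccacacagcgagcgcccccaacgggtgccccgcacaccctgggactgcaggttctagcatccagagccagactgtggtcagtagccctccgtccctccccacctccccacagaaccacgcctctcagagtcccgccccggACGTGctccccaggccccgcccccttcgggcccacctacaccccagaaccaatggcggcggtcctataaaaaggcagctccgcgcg

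On either strand, ACGTG was found in 6447 of 32851 RefSeq promoter windows (19.6%). Counted by gene with any window, it was in 21.8% of all 27025 genes and in 17 of the 24 genes of the hypoxia and glycolysis list that have a window (70.8%). Genes with several start sites have more than 1 chance of a match, and the list was drawn up from genes known to respond to hypoxia. A match describes the letters of the window and is no measurement of binding.

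Part of the list of unfolded protein and amino acid stress genes lay higher with co-culture. Of its 22 genes (2 in the class), 9 lay higher in all 3 co-culture libraries and 1 lower (40.9% and 4.55%, against 10.1% and 8.9% of all genes). Without alone replicate 3 the counts were 11 and 3. The 25000-cell library by itself lay above all alone libraries for 10 of the 22 (45.5%, against 22.9% of all genes). The median log2 fold change was 0.57, beside -0.00 over all genes.

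Trib3 (ENSMUSG00000032715, chr2:152337422-152344032), a pseudokinase that ATF4 induces and that feeds back on it, lay at 12.8, 13.8 and 16.1 CPM in the alone libraries and at 62.6, 129 and 84.8 CPM in co-culture. The groups lay far apart in all 3 batches. The fold was 6.45 (log2 fold change 2.68, SE 0.564, edgeR adjusted p = 0.161). DESeq2 called it (adjusted p = 6.35e-04), as did edgeR on the 6 libraries alone (adjusted p = 0.0478, or 0.16 with the replicate block). Asns, the asparagine synthetase gene, lay at 139, 136 and 151 CPM alone and 279, 429 and 461 CPM in co-culture (2.75-fold), and Psat1, of serine synthesis, at 127, 127 and 118 CPM alone and 188, 304 and 383 CPM in co-culture (2.36-fold). Herpud1, which helps clear misfolded protein, lay at 66.1, 59.5 and 58 CPM alone and 112, 126 and 108 CPM in co-culture (1.89-fold, DESeq2 adjusted p = 0.0239). Slc3a2, the shared heavy chain of several amino acid transporters, lay at 170, 174 and 146 CPM alone and 243, 319 and 268 CPM in co-culture (1.7-fold, DESeq2 adjusted p = 0.0424). All 4 groups were apart.

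Further genes of amino acid handling, named after their values were seen, lay the same way. Slc7a3 (ENSMUSG00000031297, chrX:101079210-101086020), a transporter of arginine and lysine, lay at 5.6, 4.47 and 2.97 CPM alone and 54.8, 60 and 34 CPM in co-culture (11.4-fold, edgeR adjusted p = 0.173, DESeq2 adjusted p = 2.32e-04). Its transwell values, 1.99, 5.7 and 21.8 CPM, were all below the lowest co-culture library. Cth, which makes cysteine, lay at 17.7, 16.9 and 18.6 CPM alone and 62, 103 and 140 CPM in co-culture (5.73-fold, DESeq2 adjusted p = 9.70e-04). For both genes the lowest co-culture library was above the highest alone library. Aldh1l2, of mitochondrial folate metabolism, was at 28, 40 and 10.9 CPM alone and 92, 177 and 189 CPM in co-culture (5.81-fold), and the secreted glycoprotein gene Stc2 at 2.42, 3.16 and 1.98 CPM alone and 10.9, 20.8 and 32 CPM in co-culture (8.42-fold).

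Among the chaperone genes of the list, Hspa5 and Calr gave overlapping groups. Hspa5, the main chaperone of the endoplasmic reticulum, lay at 1472, 1609 and 680 CPM alone and 1404, 1941 and 1952 CPM in co-culture, with alone replicate 3 the lowest. Calr, the calreticulin gene, was at 842, 845 and 596 CPM alone and 689, 784 and 884 CPM in co-culture, and the splice-regulated factor gene Xbp1 at 252, 252 and 253 CPM alone and 276, 248 and 260 CPM in co-culture. Sdf2l1, a partner of chaperones, was the member with lower values, at 42.3, 42.9 and 65 CPM alone and 36.1, 32.1 and 27.4 CPM in co-culture. After exon length correction, Sdf2l1 had an unadjusted p of 0.982 in edgeR.

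The windows of Trib3 and Asns are shown because both genes are known targets of ATF4, and the capitals mark TGATGNAA or its reverse complement, the composite element that ATF4 is known to bind. Each window holds 1 match: Trib3 at chr2:152344011-152344310, minus strand and Asns at chr6:7693160-7693459, minus strand.
Trib3: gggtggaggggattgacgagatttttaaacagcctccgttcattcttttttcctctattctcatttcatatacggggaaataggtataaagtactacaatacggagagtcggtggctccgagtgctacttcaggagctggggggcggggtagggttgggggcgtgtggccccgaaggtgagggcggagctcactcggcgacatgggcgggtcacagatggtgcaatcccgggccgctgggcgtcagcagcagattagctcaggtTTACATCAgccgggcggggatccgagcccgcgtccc
Asns: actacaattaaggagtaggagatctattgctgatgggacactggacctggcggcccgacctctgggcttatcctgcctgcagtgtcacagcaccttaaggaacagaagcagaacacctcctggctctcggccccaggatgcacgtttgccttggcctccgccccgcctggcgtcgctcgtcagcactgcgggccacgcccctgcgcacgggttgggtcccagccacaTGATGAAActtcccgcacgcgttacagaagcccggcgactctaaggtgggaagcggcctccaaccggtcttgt

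TGATGNAA was found on either strand in 4.0% of the RefSeq promoter windows and in 4.5% of genes with any window. Of the 22 genes of the unfolded protein and amino acid stress list, 6 hold it (27.3%). That list too was drawn up from known genes of these responses, targets of ATF4 among them, so its share is given as a description.

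Contractile and matrix genes were higher in co-culture for part of their members. In the contractile list 11 of 20 genes lay higher in all 3 co-culture libraries and 1 lower (55% and 5%, against 10.1% and 8.9% of all genes), with a median log2 fold change of 0.93. Without alone replicate 3 the counts were 14 and 1. Among 31 genes of collagens and matrix the counts were 10 and 2 (32.3% and 6.45%). That list's median of 0.72 dropped to 0.30 without alone replicate 3, the library in which long transcripts were low. Neither list had a gene past the edgeR threshold. In the contractile list 9 genes had an unadjusted p under 0.05 in edgeR (8 higher), in the matrix list also 9 (7 higher), and DESeq2 called 0 and 2 genes. Over all genes tested, 5.21% were higher and 4.18% lower at that p, and DESeq2 called 1.32% and 0.305%.

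Acta2 (ENSMUSG00000035783, chr19:34241090-34255590), smooth muscle actin and the usual mark of a myofibroblast, lay at 1687, 1931 and 2227 CPM alone and at 2930, 5128 and 4225 CPM in co-culture. Cnn1, the calponin gene of smooth muscle, was at 253, 233 and 228 CPM alone and 399, 789 and 763 CPM in co-culture. Ccn2, a matricellular growth factor gene that responds to TGF-beta and to stretch, was at 355, 518 and 206 CPM alone and 537, 1296 and 2613 CPM in co-culture. In all 3 genes the co-culture libraries were above the alone ones, by 2.1, 2.73 and 4.12 times between the means (edgeR adjusted p = 0.504, 0.525 and 0.515). The transwell values of Acta2, 1295, 1566 and 3083 CPM, reached above the alone range only in replicate 3. Mylk, the myosin light chain kinase gene, was the member with co-culture lower, at 56.2, 69 and 198 CPM alone and 36.2, 45.9 and 45 CPM in co-culture.

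Among the matrix genes, Col11a1 (ENSMUSG00000027966, chr3:114030540-114220718), a fibrillar collagen chain seen in cartilage and in activated fibroblasts, had the largest fold. It lay at 2.08, 0.5 and 0.421 CPM alone and 11.5, 24.5 and 26.8 CPM in co-culture (20.9-fold, log2 fold change 4.41, SE 1.18, edgeR adjusted p = 0.334, DESeq2 adjusted p = 0.00163). Lama1, a laminin chain of basement membranes, lay at 2.83, 2.37 and 0.293 CPM alone and 10.7, 34.7 and 13.9 CPM in co-culture (10.8-fold, DESeq2 adjusted p = 0.0256). Neither gene overlapped between the groups, and in both the lowest library was alone replicate 3. The edgeR log2 fold change of Col11a1 was 5.47 without alone replicate 1, 4.09 without alone replicate 2 and 4.04 without alone replicate 3. The abundant Fbln2, an elastic fibre component, lay at 1032, 1280 and 277 CPM alone and 3740, 5653 and 2505 CPM in co-culture (4.59-fold, and 3.43-fold without alone replicate 3). Col1a1, the main chain of type I collagen, lay at 3653, 5404 and 726 CPM alone and 8928, 14773 and 5650 CPM in co-culture. Its co-culture replicate 3 was only just above alone replicate 2, and the adjusted p was 0.525 (edgeR).

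Not all matrix genes lay in this direction. Col8a1, a short-chain collagen, was at 276, 286 and 93.1 CPM alone and 93, 69.4 and 66 CPM in co-culture (2.87-fold lower). Col14a1, a collagen of fibril surfaces, was at 21.8, 22.5 and 16.1 CPM alone and 10.4, 11.5 and 2.52 CPM in co-culture (2.47-fold lower). Both were lower in all 3 co-culture libraries, but for Col8a1 co-culture replicate 1 (93 CPM) was only just below alone replicate 3 (93.1 CPM). Fn1, the fibronectin gene, and Sparc overlapped, with Fn1 at 3648, 5906 and 971 CPM alone and 8875, 9720 and 2744 CPM in co-culture. In the list of 22 metalloproteinases and inhibitors, 4 genes lay higher and 2 lower (18.2% and 9.09%, against 10.1% and 8.9% of all genes; 2 in the class), and without alone replicate 3 the counts were 6 and 6. Of the 4 higher genes, the collagenase activator gene Mmp14 was at 275, 363 and 122 CPM alone and 485, 839 and 550 CPM in co-culture. The gelatinase gene Mmp2, another of them, was at 108, 185 and 46.3 CPM alone and 365, 482 and 274 CPM in co-culture. Both had their lowest alone value in replicate 3, and the 2 lower genes are not described.

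**Figure D2:**
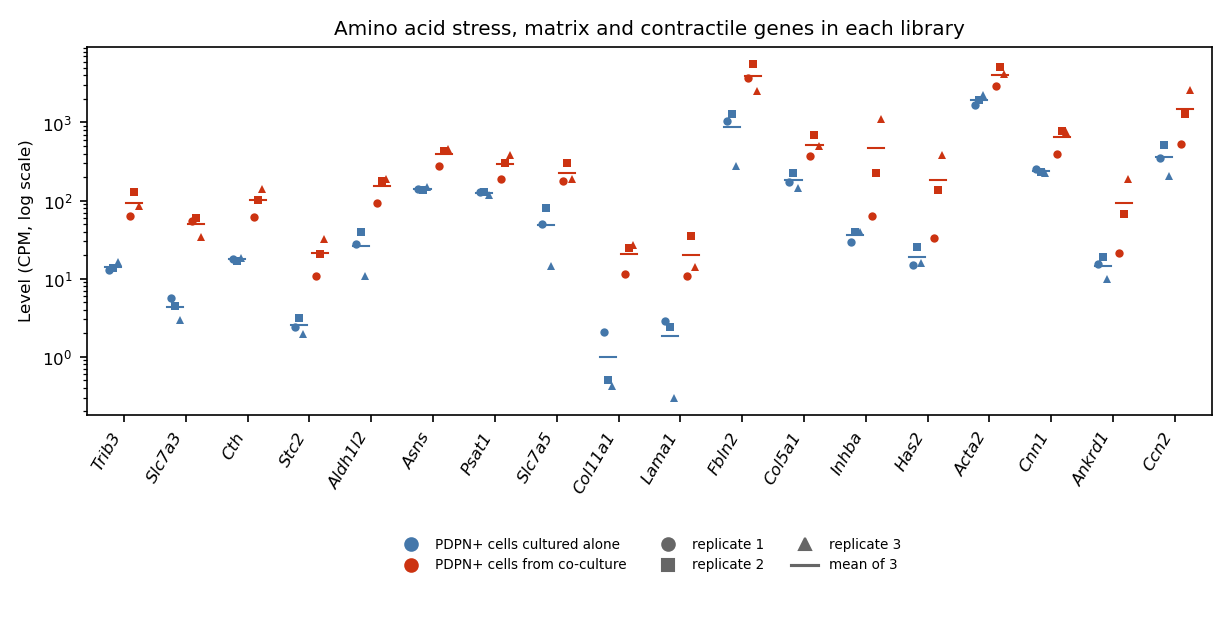
Level in CPM (log axis) of genes of amino acid supply, matrix, contraction and activin signalling in the 6 libraries, with blue for cells alone, red for co-culture, a circle, square or triangle for replicate 1, 2 or 3, and a bar for the mean of 3. The lowest red point of each gene drawn lies above its highest blue point, as at 62.6 against 16.1 CPM for Trib3.

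Of 26 genes of the TGF-beta and activin pathways, 7 lay higher and 1 lower in all 3 co-culture libraries (26.9% and 3.85%, against 10.1% and 8.9% of all genes), and 4 of the 26 are in the class. Without alone replicate 3 the counts were 8 and 1. Among the ligands, Inhba, the activin A subunit gene, lay at 29.4, 39.4 and 39.2 CPM alone and at 63.6, 225 and 1117 CPM in co-culture. The groups were apart, but co-culture replicate 3 was several times above the other co-culture libraries, so the 13-fold ratio of the means rests largely on it (log2 fold change 3.69, SE 1.46, edgeR adjusted p = 0.525). Tgfb2 lay at 19.4, 17.2 and 14.8 CPM alone and 31, 35.7 and 27.2 CPM in co-culture, whereas Tgfb1, in the carry-over class, and Tgfb3 overlapped. Of the activin binding proteins, Fstl3 lay at 12.9, 17.3 and 15.4 CPM alone and 31.9, 54.8 and 108 CPM in co-culture (4.26-fold) and Fst overlapped, at 30.7, 46.8 and 80.8 CPM alone and 25.5, 97.4 and 57.5 CPM in co-culture. Smad6, an inhibitor of BMP signalling, was the member with co-culture lower, at 44.1, 64.1 and 39.5 CPM alone and 22.6, 27 and 16.8 CPM in co-culture (2.22-fold). Has2, which makes hyaluronan and responds to many growth factors, lay at 15.1, 25.6 and 15.9 CPM alone and 33.6, 136 and 385 CPM in co-culture (9.81-fold), again with the highest value in co-culture replicate 3.

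Several mesothelial genes lay lower in the co-culture stromal cells, by very different amounts in the 3 batches. Of 16 genes (1 in the class), 6 lay below all alone libraries in all 3 co-culture libraries and 0 above (37.5% and 0%, against 8.9% and 10.1% of all genes). Without alone replicate 3 there were 10 lower and 0 higher. The 25000-cell library by itself was below all alone libraries for 7 of the 16, against 21% of all genes. The median log2 fold change was -1.44. At an unadjusted p under 0.05 the edgeR test had 1 gene lower and 1 higher (against 4.18% and 5.21% of all genes), and DESeq2 called 0.

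Upk3b (ENSMUSG00000042985, chr5:136038496-136046487), a uroplakin and a leading mark of mesothelium, lay at 1109, 800 and 682 CPM in alone replicates 1, 2 and 3. In co-culture it lay at 372 CPM in replicate 1, 32.6 CPM in replicate 2 and 0.0714 CPM in replicate 3. Upk1b, its relative, was at 853, 665 and 663 CPM alone and 416, 59.7 and 0.762 CPM in co-culture, and the membrane glycoprotein gene Gpm6a at 567, 364 and 242 CPM alone and 167, 16.8 and 0.143 CPM in co-culture. In all 3 genes the 25000-cell co-culture library was the highest of its group, yet below the alone range, and the 2148-cell library had almost none. The fold of Upk3b between the means was 6.41 lower (log2 fold change -2.67, SE 2.01, edgeR adjusted p = 0.612, DESeq2 adjusted p = 0.567).

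The order of the co-culture libraries varied among the other mesothelial genes. Lrrn4 was at 541, 599 and 125 CPM alone and 177, 8.78 and 0.0476 CPM in co-culture, and it overlapped through alone replicate 3. Krt8, a keratin of simple epithelia, was at 22.7, 13.4 and 26.6 CPM alone and 12.1, 1.53 and 0.143 CPM in co-culture, and Krt7 at 53.1, 33.7 and 21.6 CPM alone and 12.8, 1.63 and 1.64 CPM in co-culture. Both keratins were lower in all 3 co-culture libraries. Wt1, a transcription factor of the mesothelial lineage, lay at 59.9, 59.7 and 54.1 CPM alone and 59.1, 57.3 and 17.5 CPM in co-culture. Replicates 1 and 2 of co-culture were thus at the alone level of Wt1, and replicate 3 was below it. Tbx18, also a factor of that lineage, was at 9.14, 6.87 and 6.12 CPM alone and 8.79, 15.4 and 37.2 CPM in co-culture and was highest in co-culture replicate 3.

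The summed level of the 16 genes was 4007, 3305 and 2220 CPM alone, 1904, 608 and 292 CPM in co-culture and 2274, 2088 and 426 CPM in transwell culture. The order followed the number of sorted cells in the co-culture group (25000, 3730 and 2148) and the batch in both groups. Medians of the log2 ratio to the alone library of the same batch were -0.58, -1.46 and -3.12 for co-culture and -0.65, -0.64 and -1.86 for transwell. Both sets share the alone libraries. Whether cell number, batch or culture sets these levels was not tested.

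**Figure D3:**
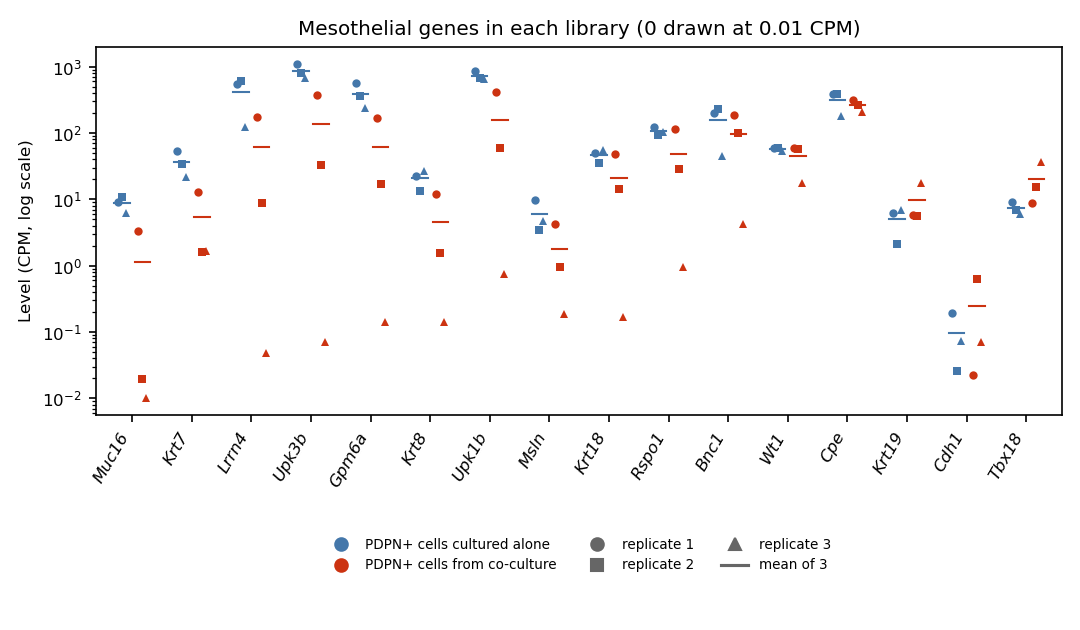
Level in CPM (log axis, 0 drawn at 0.01 CPM) of the 16 mesothelial genes in the 6 libraries, with blue for cells alone, red for co-culture, a circle, square or triangle for replicate 1, 2 or 3, and a bar for the mean of 3. The red points of Upk3b spread from 372 CPM in the 25000-cell library to 0.0714 CPM in the 2148-cell one, and those of Wt1 from 59.1 to 17.5 CPM.

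Fibroblast markers differed among themselves. In the list of 22 fibroblast genes, 5 lay higher and 3 lower in all 3 co-culture libraries (22.7% and 13.6%, against 10.1% and 8.9% of all genes). The median log2 fold change of 0.16 became -0.08 without alone replicate 3 and -0.05 after exon length correction. The 25000-cell library by itself lay above the alone range for 12 genes and below it for 3 (54.5% and 13.6%, against 22.9% and 21% of all genes). The higher ones were Col1a1, Col5a1, Col5a2, Fbn1 and the growth factor receptor gene Pdgfrb. Fbn1, of elastic microfibrils, lay at 208, 260 and 75.4 CPM alone and 497, 657 and 350 CPM in co-culture, and Col5a1 at 173, 227 and 145 CPM alone and 374, 687 and 501 CPM in co-culture (DESeq2 adjusted p = 0.0499). The 3 lower ones were Dpt, Ly6a and Cd34, which mark progenitor-like fibroblasts of connective tissue. Pi16, Dpp4 and Mfap5, also on the list and also used as marks of such cells, overlapped between the groups. Dpt (ENSMUSG00000026574, chr1:164796644-164824266), the dermatopontin gene, lay at 10.6, 3.08 and 33.3 CPM alone and 1.12, 0.155 and 0.0952 CPM in co-culture (34.3-fold lower, log2 fold change -5.14, SE 1.46, edgeR adjusted p = 0.38, DESeq2 adjusted p = 0.00105). Its highest alone value was that of replicate 3, without which the fold was 14.9. Ly6a, which encodes Sca-1, was at 36.1, 15.6 and 97.9 CPM alone and 8.33, 6.65 and 4.45 CPM in co-culture (7.7-fold lower, DESeq2 adjusted p = 0.00649). Cd34 was at 83.4, 56.8 and 70.6 CPM alone and 31.9, 10.2 and 0.214 CPM in co-culture (4.98-fold lower, edgeR adjusted p = 0.571). Pdgfra, a growth factor receptor of fibroblasts, overlapped, at 907, 1192 and 153 CPM alone and 772, 326 and 138 CPM in co-culture.

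Several genes of fat cells and their precursors lay lower with co-culture. Of 13 adipocyte and lipid genes tested (15 in the list), 6 lay lower and 1 higher in all 3 co-culture libraries (46.2% and 7.69%, against 8.9% and 10.1% of all genes), and 5 of the 13 are in the class. The higher one was Cd36, of the carry-over class, and the counts were the same without alone replicate 3. Pparg, the master regulator of fat cell formation, lay at 10.4, 5.5 and 14.5 CPM alone and 1.83, 1.98 and 2.14 CPM in co-culture (5.13-fold lower, log2 fold change -2.38, SE 0.488, edgeR adjusted p = 0.152, DESeq2 adjusted p = 1.58e-04). Plin1, the coat protein of fat droplets, was at 2.87, 1.66 and 6.04 CPM alone and at 0.114, 0.0581 and 0.0714 CPM in co-culture, levels of only a few counts per library (DESeq2 adjusted p = 1.11e-04). Lpl, the lipoprotein lipase gene, was far more abundant, at 461, 450 and 416 CPM alone and 180, 175 and 76.8 CPM in co-culture (3.07-fold lower, edgeR adjusted p = 0.525). All 3 genes were lower in all 3 co-culture libraries, and Pparg had the least spread there.

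The largest differences outside the class, by the rule for named genes without its call requirement, added genes of other roles. Dlk1, a gene of fat cell precursors that holds back their maturation, lay at 44.4, 31.1 and 54 CPM alone and 2.9, 1.51 and 0.881 CPM in co-culture (24.5-fold lower, edgeR adjusted p = 0.426, and 0.0409 on the 6 libraries alone, or 0.152 there with the replicate block). Mest, an imprinted gene of mesenchyme, was at 19.3, 20.3 and 20.5 CPM alone and 2.56, 0.562 and 1.12 CPM in co-culture (14.2-fold lower). Ddit4l, an inhibitor of mTOR, was at 55, 61.5 and 45.5 CPM alone and 6.85, 3.22 and 5.9 CPM in co-culture (10.1-fold lower, edgeR adjusted p = 0.0359 on the 6 libraries alone, or 0.152 there with the replicate block). In these 3 genes the lowest alone library was well above the highest co-culture library. Agt, the angiotensinogen gene, does not meet the rule, with a mean of 8.77 CPM alone, and was added after its values were seen. Agt was at 6.44, 2.6 and 17.3 CPM alone with no count in any co-culture library, at least 402-fold lower taking 3 counts in the group as the floor. Car3, a carbonic anhydrase of fat and muscle, was at 47.6, 2.03 and 32 CPM alone and had 1 count in the co-culture libraries together.

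Among genes with co-culture higher was Crabp2, which carries retinoic acid to its receptors, at 0.429, 0.947 and 1.96 CPM alone and 7.85, 12.9 and 18.2 CPM in co-culture (11.7-fold, edgeR adjusted p = 0.415, DESeq2 adjusted p = 0.0149). Sox11, a transcription factor of embryonic mesenchyme, lay at 1.09, 1.68 and 0.696 CPM alone and 4.08, 15.3 and 58.5 CPM in co-culture, with most of its 22.4-fold ratio from co-culture replicate 3. The cell adhesion gene Ncam1 lay at 43.1, 75.1 and 33.1 CPM alone and 173, 373 and 171 CPM in co-culture (4.75-fold, DESeq2 adjusted p = 0.0333). Groups were apart for all 3.

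The series is about vitamin A, and the other retinoid genes were mixed. In the list of uptake and synthesis 4 of 17 genes lay higher and 2 lower, and among receptors and targets 3 of 20 lay higher and 0 lower. These are 23.5% and 11.8%, and 15% and 0%, against 10.1% and 8.9% of all genes, with 1 and 2 members in the class. The higher ones in the latter list were the retinoic acid receptor genes Rara, Rarb and Rarg. Rarg lay at 11.6, 11.3 and 4.6 CPM alone and 17.5, 22.5 and 18.3 CPM in co-culture (2.13-fold, edgeR adjusted p = 0.417), and Rara at 12.2, 14.4 and 10.7 CPM alone and 19.2, 22.8 and 18.4 CPM in co-culture. Aldh1a2, the enzyme that makes retinoic acid in mesothelium and fibroblasts, overlapped at 264, 260 and 180 CPM alone and 410, 322 and 177 CPM in co-culture. Its relative Aldh1a1 was lower in all 3 co-culture libraries, at 301, 216 and 192 CPM alone and 113, 32.1 and 0.738 CPM in co-culture (4.86-fold, edgeR adjusted p = 0.593), with the same order of libraries as the mesothelial genes.

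Signals from stromal cells to immune cells went both ways. Of 27 stromal cytokine and chemokine genes tested, 6 lay higher and 5 lower in all 3 co-culture libraries (22.2% and 18.5%, against 10.1% and 8.9% of all genes; 3 in the class). The 25000-cell library by itself lay above the alone range for 7 and below it for 13 (25.9% and 48.1%, against 22.9% and 21% of all genes). Il6 lay at 10.3, 12 and 12.5 CPM alone and 23.1, 26.7 and 388 CPM in co-culture. It was a little above the alone range in co-culture replicates 1 and 2 and far above it in replicate 3, and transwell replicate 3 was also high (17.7, 25.7 and 223 CPM over the 3 transwell libraries). Cxcl13, which attracts B cells, was at 275, 86 and 218 CPM alone and at 12.6, 6.69 and 0.0714 CPM in co-culture (29.9-fold lower, edgeR adjusted p = 0.526). Its transwell values spanned the whole range, at 677, 42.2 and 0.656 CPM. Il34, a ligand of the CSF1 receptor of macrophages, was at 20.6, 12.7 and 26.3 CPM alone and 5.73, 1.43 and 0.524 CPM in co-culture (7.75-fold lower). Csf1, the other ligand of that receptor, overlapped, at 548, 812 and 273 CPM alone and 564, 1218 and 1127 CPM in co-culture. The monocyte attractant gene Ccl2 overlapped too, at 160, 180 and 158 CPM alone and 46.6, 42.2 and 365 CPM in co-culture, since co-culture replicate 3 was above and the other co-culture libraries below the alone range. Cxcl12 was lower in all 3, at 1046, 1109 and 1240 CPM alone and 848, 821 and 359 CPM in co-culture (1.67-fold).

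**Figure D4:**
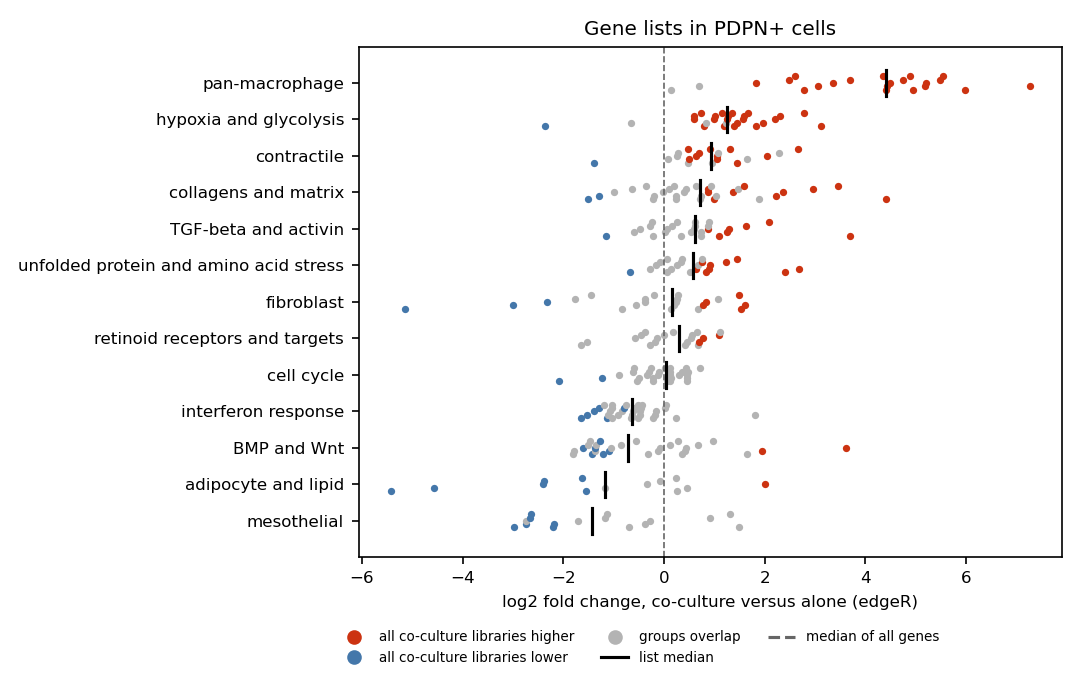
Log2 fold change of co-culture against alone (edgeR) for each tested gene of 13 gene lists; red points are genes with all 3 co-culture libraries above all 3 alone libraries, blue points those with all 3 below, grey points those that overlap, and black bars the list medians. The hypoxia and glycolysis list has a median of 1.26 and the mesothelial list one of -1.44.

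Pan-macrophage genes in the sorted co-culture stromal cells lay at a small share of the macrophage level, with a similar median in the 3 replicates. Of the 22 genes, all in the carry-over class, 20 lay higher in all 3 co-culture libraries and 0 lower. These are 90.9% and 0%, against 10.1% and 8.9% of all genes tested and 35.5% and 2.74% of the class. Over 22 pan-macrophage genes, the median excess over the cells alone was 1.48%, 1.26% and 1.53% of the level in co-culture macrophages in replicates 1, 2 and 3 (mean 1.42%, SD 0.147, n = 3). After transwell culture it was 0.403%, -0.00428% and 0.0148% of the level in transwell macrophages. Adgre1, which encodes F4/80, lay at 0.708, 1.03 and 1.23 CPM in the cells alone and 40.1, 38.5 and 62.5 CPM in co-culture (47.7-fold, edgeR adjusted p = 0.0549). Itgam, an integrin of myeloid cells, was at 0.644, 0.342 and 0.147 CPM alone and 56.5, 58 and 58.5 CPM in co-culture (edgeR adjusted p = 0.0524). Lyz2, the lysozyme gene, whose reads its close relative Lyz1 can share, was at 75, 32.1 and 42.6 CPM alone and 2109, 1958 and 1376 CPM in co-culture. The co-culture libraries were far above the alone ones for all 3 genes, with little spread.

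The excess was also computed for the class genes that lay higher, which says nothing of the rest of the 1607. Among 235 class genes with no overlap, higher in co-culture and at 100 CPM or more in co-culture macrophages, the median excess was 1.64% of the macrophage level (quartiles 1.38% and 3.36%), and 172 lay between 0.5% and 3%. For 48 it was over 5%. Tgfbr1, the TGF-beta type I receptor gene, had the largest at 66.1%. It lay at 65.7, 85.4 and 25.8 CPM in stromal cells alone, 93, 178 and 266 CPM in co-culture and 17.3, 71.7 and 208 CPM in transwell culture, so co-culture was above the alone range in all 3 libraries. Nt5e, which encodes the ectonucleotidase CD73, lay at 6.63, 6.97 and 0.531 CPM alone and 41.6, 43 and 52.8 CPM in co-culture, an excess of 14.1% of its macrophage level. Its transwell values were 1.79, 14.5 and 36.3 CPM. Tnfaip2, a gene induced by tumour necrosis factor, had an excess of 26% and lay at 95.6, 126 and 73.1 CPM in the stromal cells alone. What part of each excess came from macrophages was not tested.

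**Figure D5:**
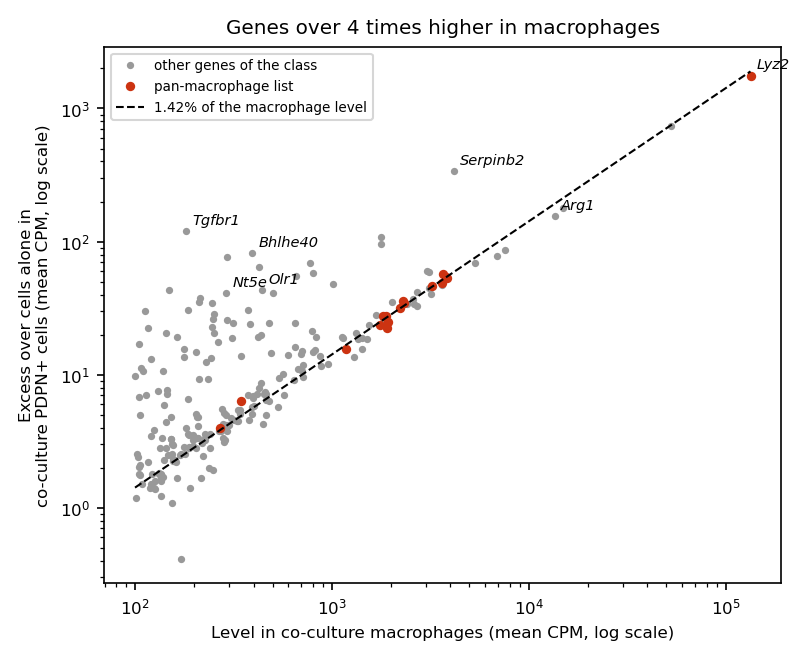
Excess of each of 235 possible carry-over genes in co-culture PDPN+ cells over cells alone (mean CPM, log axis) against its level in co-culture macrophages (mean CPM, log axis), with pan-macrophage genes in red and a dashed line at 1.42% of the macrophage level. The red points are only those pan-macrophage genes that are among the 235, chosen for lying higher in co-culture, and not the whole list. They lie between 1.18% and 1.83% of the macrophage level. Of the 235 genes, 48 lie above 5% of their macrophage level, with Tgfbr1 the highest at 66.1%.

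Direct contact was set beside the transwell last. Of 19134 genes, 1 differed between co-culture and transwell PDPN+ cells in edgeR (0.00523%), 966 had an unadjusted p under 0.05 (5.05%), and DESeq2 called 135 (0.633%). The 1 gene was Cd84, a leukocyte adhesion receptor of the carry-over class, and its call was lost with the replicate block (adjusted p = 0.0858). Between transwell and alone 0 of 19134 passed in edgeR (0%). For genes outside the class the difference between contact and transwell was therefore not called by edgeR. Trib3 had a log2 fold change of 1.25 (SE 0.538, adjusted p = 0.805), Col11a1 of 3.18 (SE 1.11, adjusted p = 0.805) and Slc16a3 of 0.92 (SE 0.834, adjusted p = 0.82) for co-culture over transwell.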

How the data were processed

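PolyA RNA of sorted cells was sequenced. Per the file headers, the authors deposited a unique-read count and a size-factor-adjusted RPKM for 50764 gene models, and the RPKM was not used for tests. Alignment used GSNAP and the build was GRCm38, per the submitters' processing notes, with versions, annotation and strand setting not given in the sources used here. Antisense, overlapping and near-identical genes therefore cannot be separated with certainty. Gene models without a symbol (192) hold 0.0358% of the counts. No 2 libraries of a group were copies (lowest chi-square per degree of freedom 42.74).

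CPM values were computed in edgeR from the counts and TMM-scaled library totals. The main test was edgeR's quasi-likelihood test (edgeR 4.0.16 with limma 3.58.1 in R 4.3.3), run on the counts of the 12 PDPN+ libraries, with group as the factor, TMM scaling and the default filter on low counts, and p adjusted by the Benjamini-Hochberg method over all genes tested. Calls needed an adjusted p below 0.05, and SE is the absolute log2 fold change over the square root of F. The fit was also run on simulated counts, with the same relative spread for every gene and no batch or exon length trend. That run cannot tell how the fit performs on libraries that have such trends. DESeq2 1.42.0, the 6 libraries alone, a replicate block, other filters, a lowess correction of each library for exon length (span 0.3) and leaving out libraries were alternatives. Floors of 3 counts cover counting error only.

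Same-numbered libraries share a batch by label. Their deviations from the group means correlated across genes with r = 0.234, 0.372 and 0.114 for replicates 1, 2 and 3. For libraries of unlike number r lay between -0.253 and 0.0198. Deviations from a group mean are tied to each other, so these values are a weak check of the pairing. The main fit did not use the pairing, and the replicate block did. For co-culture replicate 1 the source names of stromal cells and macrophages are swapped relative to the titles. Titles were used, and Adgre1 lay at 40.1 CPM in that stromal library and at 2699 CPM in its macrophage partner.

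The comparison, its gene lists and its named genes were chosen with earlier results of these data known. The rule for named genes (called, largest fold change in either direction, no overlap, mean CPM of 10 or more in whichever group was higher, a proper symbol) left 0 genes, so genes that meet it without the call were named after their values were seen, 14 in each direction outside the class and 8 within it. The named genes Ear1, Sprr2a2 and Ifi27l2a have close copies and are not described. Other named genes are not described either. Outside the class these are Tnfsf8, Sorcs2, Car12 and Rasl12 (higher) and Pnoc, Clca3a1, Ddc, Fam84a and Kcnip1 (lower). Within the class they are Mmp9, Clec4e, Vsig4, Alox15, Marco, Fcna and Arg1.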

Additional observations from a re-analysis of the deposited data

Results flagged for a closer look

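Cd84, an adhesion receptor of leukocytes in the possible carry-over class, was called between direct contact and transwell culture, but not with the replicate block. It lay at 12.7, 16 and 12.3 CPM in co-culture replicates 1, 2 and 3, at 1.04, 0.88 and 0.634 CPM in the transwell replicates and at 1.87, 1.37 and 1.83 CPM in the cells alone. Every co-culture library was above all libraries of the other groups. The log2 fold change of co-culture over transwell was 3.94 (SE 0.4, edgeR adjusted p = 0.0131, or 0.0858 with the replicate block). Its excess over the cells alone was 1.25% of its level in co-culture macrophages, beside 1.42% for the pan-macrophage genes.

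Saa3, an acute phase protein gene, was below the alone range in all 3 co-culture libraries and above it in all 3 transwell libraries. Co-culture replicate 1 (1613 CPM) was only just below the lowest alone library (1632 CPM). It lay at 2617, 2648 and 1632 CPM alone, 1613, 539 and 1527 CPM in co-culture and 14515, 9210 and 9627 CPM in transwell culture. The log2 fold change of co-culture over transwell was -3.24 (SE 0.947, edgeR adjusted p = 0.784), which misses the threshold. Of all genes tested, 16 lay on opposite sides of the alone range in this way, 7 of them lower in co-culture and higher in transwell and 9 the reverse. Saa3 was the 1 of these with a proper gene symbol and 100 CPM or more.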

How the results depend on the processing

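The edgeR count of 0 stayed 0 with DESeq2's size factors, without the co-culture libraries of 3730 and 2148 cells, without the batch of replicate 3, without both libraries with a length trend, and leaving out each of the 6 libraries in turn (lowest and highest count 0), for all genes and for those outside the class, also with the class set at 2 or 10 times or from co-culture macrophages. With the replicate block, which pairs the libraries by batch, it was 0 as well, also with exon length correction and on the 6 libraries alone, where the 8 genes outside the class had adjusted p from 0.111 to 0.171. Other settings gave calls, with the number outside the class in brackets: 347 with DESeq2 (130), 647 with DESeq2 on the 6 libraries (358), 411 with DESeq2 without both libraries with a length trend (177), 34 with edgeR on the 6 libraries (8), 31 without a filter on low counts (4), 18 with exon length correction (1) and 1 at a mean of at least 10 CPM (0; it was Itgam, adjusted p = 0.0462). The cause of these differences was not tested. Of the 130 DESeq2 calls outside the class, 79 were shared with DESeq2 without the libraries with a length trend and 6 with edgeR on the 6 libraries. Of the 36 named genes, 0 reversed under any setting. All 36 were chosen for groups that do not overlap, so a reversal was hardly possible and the 0 is no sign of stability. The macrophage share of 1.42% ranged from 1.37% to 1.51% when a co-culture library was left out and was 1.47% and 1.45% with other genes or another reference. Between co-culture and transwell the count of 1 became 0 with the replicate block and 135 with DESeq2. The settings for the batch of replicate 3, exon length, length trend and DESeq2 on the 6 libraries were chosen after seeing the data. No count in any of the 3 co-culture libraries allows a level of up to 0.0218 CPM (3 counts over the group, counting error only), and the precision of every value rests on 3 libraries a group.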

Other observations

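Some target genes of BMP signalling lay lower with co-culture. Of 28 BMP and Wnt genes, 6 lay lower and 2 higher in all 3 co-culture libraries (21.4% and 7.14%, against 8.9% and 10.1% of all genes; 3 in the class), with a median log2 fold change of -0.71. Without alone replicate 3 the counts were 10 and 3, beside 3121 and 2764 of all 19134 genes. At an unadjusted p under 0.05 in edgeR, 5 of the 28 were lower and 2 higher, and 1 and 1 without alone replicate 3. Over all genes tested those counts were 799 and 997, and 371 and 723 without that library. The 25000-cell library by itself lay below the alone range for 10 and above it for 9 (35.7% and 32.1%, against 21% and 22.9% of all genes). In that library the list thus lay to both sides. Id1, an inhibitor of differentiation factors that BMP induces, lay at 122, 95.5 and 247 CPM alone and 76.7, 43.3 and 36 CPM in co-culture (2.98-fold lower, edgeR adjusted p = 0.525), and Id3 at 989, 808 and 1766 CPM alone and 700, 365 and 266 CPM in co-culture (2.68-fold lower). Every co-culture library of both genes was below the alone range, with the highest value in alone replicate 3. Bmp4, a ligand of the pathway, was at 105, 76.1 and 100 CPM alone and 63.9, 44 and 1.14 CPM in co-culture. Bmp1, a protease that matures collagen in spite of its name, was higher in all 3 co-culture libraries, at 106, 167 and 65.8 CPM alone and 199, 572 and 527 CPM in co-culture (3.83-fold).

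Of 32 interferon response genes, 6 lay lower and 0 higher in all 3 co-culture libraries (18.8% and 0%, against 8.9% and 10.1% of all genes; 8 in the class), with a median log2 fold change of -0.64. Without alone replicate 3, 13 lay lower, beside 3121 of all 19134 genes. The 25000-cell library by itself lay below the alone range for 8 and above it for 3 (25% and 9.38%, against 21% and 22.9% of all genes). At an unadjusted p under 0.05 the edgeR test had 0 genes lower and 0 higher, against 4.18% and 5.21% of all genes. DESeq2 called 0 of the list. Igtp, an interferon-induced GTPase gene, lay at 33.5, 24.7 and 32.9 CPM alone and 20.1, 5.45 and 3.71 CPM in co-culture (3.11-fold lower, edgeR adjusted p = 0.526), and B2m, the shared chain of MHC class I, at 502, 301 and 805 CPM alone and 291, 160 and 290 CPM in co-culture. B2m is in the carry-over class. Of 30 cell cycle genes, 2 lay lower and 0 higher (6.67% and 0%, against 8.9% and 10.1% of all genes). The 25000-cell library by itself lay below all alone libraries for 22 of the 30 (73.3%, against 21% of all genes). The proliferation marker gene Mki67 lay at 33.4, 52.7 and 37.3 CPM alone and 25.9, 51.2 and 56.7 CPM in co-culture.

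Among genes called by edgeR on the 6 libraries alone, 2 not described above were chosen after their values were seen, and edgeR on the 12 libraries called neither. Depp1, a gene of the FOXO stress response, lay at 5.81, 5.66 and 7.55 CPM alone and at 0.114, 0.0388 and 0.0714 CPM in co-culture (edgeR adjusted p = 0.0248 on 6 libraries, or 0.133 with the replicate block). Tnnt2, cardiac troponin T, lay at 8.75, 8.74 and 7.44 CPM alone and at 0.799, 0.388 and 0.809 CPM in co-culture (edgeR adjusted p = 0.0478 on 6 libraries, or 0.171 with the replicate block). The groups lay far apart for both genes.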
